A study of Mus musculus with 2 samples.

Results

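Peaks of H3K9me3, a histone mark of silenced chromatin, were examined at 10 genes of the Notch pathway in intestinal stem cells. The genes were 2 receptors (Notch1 and Notch2), 3 ligands (Dll1, Dll4 and Jag1), the DNA-binding protein Rbpj, and 4 Hes repressors (Hes1, Hes2, Hes3 and Hes5), out of 21774 protein-coding genes placed on chromosomes. A peak was assigned to a gene when it shared at least 1 bp with the gene's span on GRCm38 (mm10) or with the 5 kb on either side. By this rule 22 of the 40119 deposited peaks belonged to the 10 genes. The cells were GFP high and CD24low, sorted from 12 Lgr5-EGFP-IRES-creERT2;setdb1fl/fl C57BL/6 mice aged 8 weeks. Lgr5 drives both GFP and the inducible Cre in these animals, and Setdb1 encodes an H3K9 methyltransferase. The labels do not state whether Setdb1 had been deleted. There was 1 ChIP library and 1 control library, labelled both input and IgG, with the same genotype, strain and age, so no difference between samples could be tested. Cells were pooled before sequencing, so a mark in few cells and a weak mark in every cell cannot be told apart, and a peak list holds no expression values against which to check the sorted cell type.

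In Notch signalling a ligand on one cell binds a receptor on its neighbour, and proteases then release the intracellular part of the receptor. That fragment enters the nucleus, joins Rbpj on DNA and switches on target genes, among them members of the Hes family of transcriptional repressors. In the intestinal crypt the pathway maintains stem cells and steers their daughters toward the absorptive fate, chiefly through Hes1, which represses the secretory regulator Atoh1. Hes3 and Hes5 are best known from the developing nervous system.

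Of the 10 genes, 9 carried at least 1 peak, and the exception was Hes1. The background was 55.6% of all protein-coding genes with a peak by the same rule. Gene length bears on this share, which was 39.7% for genes of at most 7 kb, 55.4% for genes of 7 to 30 kb and 69.2% for genes over 30 kb. Of the 22 peaks, 12 were below the median height of the list. Their normalized tag count, which is the ChIP tags of a peak scaled by the authors' caller to a fixed library total, ranged from 9.43 to 63.9 with a median of 13.6, beside a median of 17.3 over the whole list. In tags recovered from those values, the peaks held 9 to 61 ChIP tags with a median of 13. They were 500 to 2156 bp wide, and 10 of the 22 had a width of exactly 500 bp (45.5%). Over the whole list the median width was 769 bp, beside 650 bp at the 22 peaks, and 31.9% of peaks were exactly 500 bp wide. One peak, at Hes2, reached 50.8 normalized tags, the threshold of the top 10% of the list, and such peaks are called strong here. Over all protein-coding genes, 6.61% had a strong peak.

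**Figure D1:**
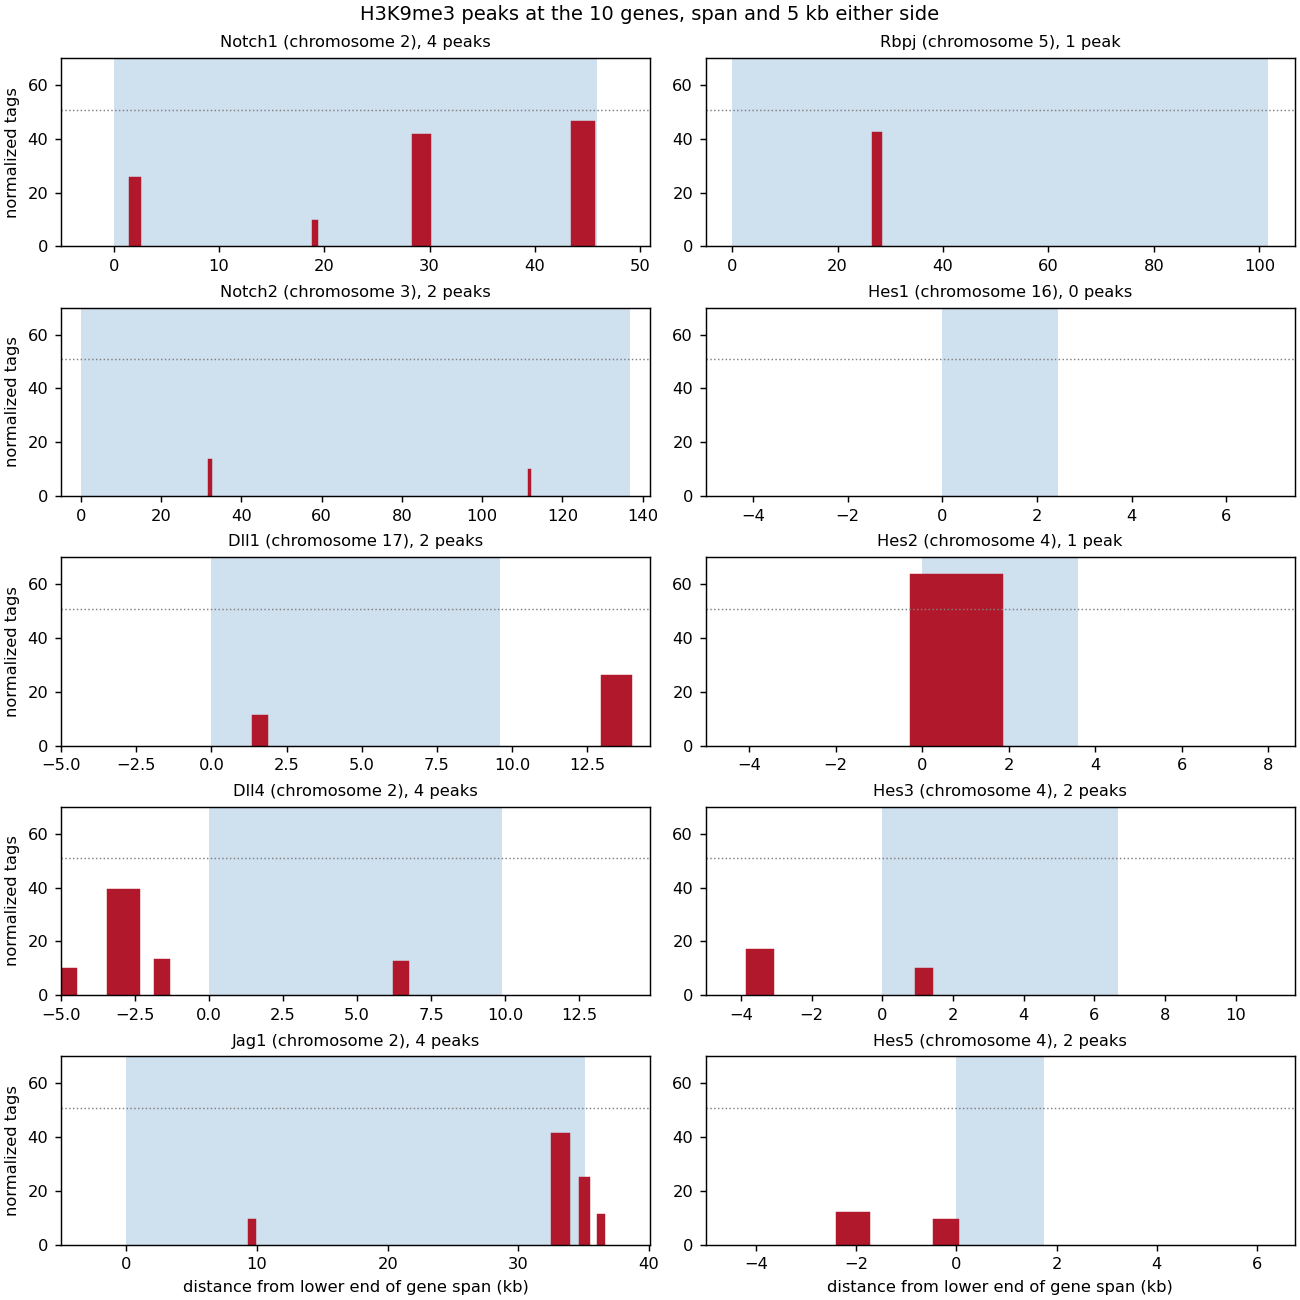
Peaks (red bars, drawn to their width) at each of the 10 genes, with the gene span shaded, distance from the lower end of the span in kb on the horizontal axis and the deposited normalized tag count of each peak on the vertical axis. The dotted line marks 50.8 normalized tags, which the Hes2 peak at 63.9 passes, and the panel of Hes1 holds no peak.

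Control tags were low at these peaks, from 0.5 to 5, and 11 of the 22 (50.0%) stood at 0.5, the lowest value in the list, beside 43.0% of all peaks. A fold at that value depends on the floor. The authors' fold over control ranged from 4.69 to 33.53 at the 22 peaks, with a median of 12.66 beside 12.32 for the list. The highest fold, 33.53 at Notch1, rested on a control of 0.5 tag, and the lowest, 4.69 at Jag1, on 3.5 control tags. By position, 12 peaks lay inside a gene, 3 crossed an end of the gene and 7 lay in the flanks.

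**Figure D2:**
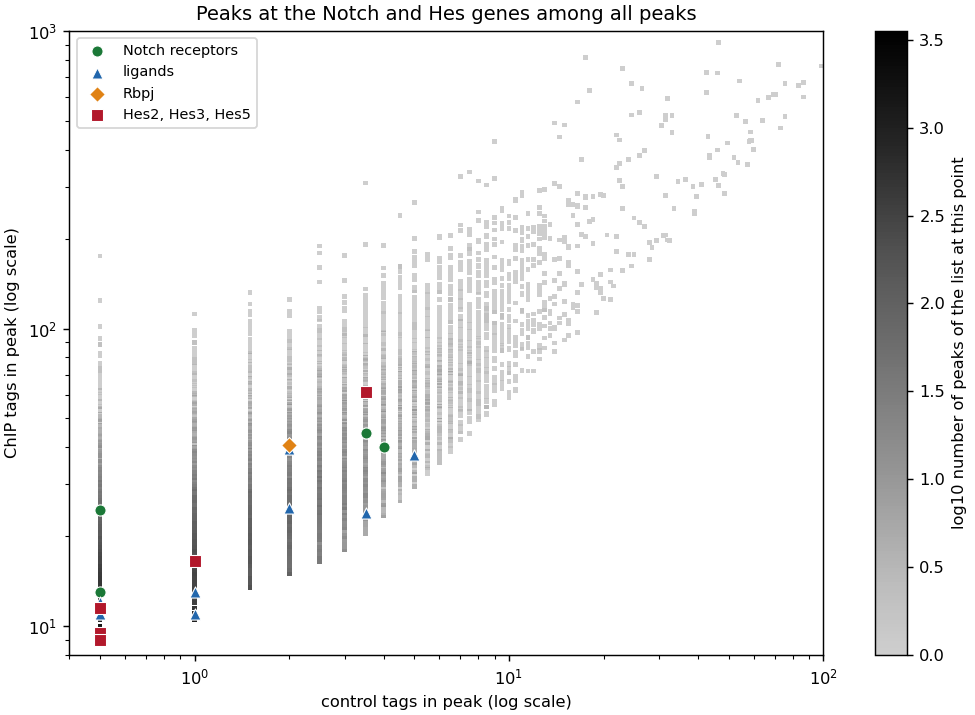
ChIP tags (vertical, log scale) against control tags (horizontal, log scale) of the 22 peaks at the Notch and Hes genes, in colour, over the peaks of the whole list in grey, shaded by the number of peaks at each point. The few highest peaks of the list lie outside the axes. The coloured points sit at 5 control tags or fewer, and the highest is the Hes2 peak at 61 ChIP tags.

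The peaks listed at the 2 receptors differed in number and height. Notch1 (Entrez gene 18128, chr2:26457902-26503822, 45.9 kb), a receptor of crypt stem cells, had 4 peaks, and all lay inside the gene. The tallest, at chr2:26501366-26503522, held 46.6 normalized tags, or 44.5 tags (approximate Poisson 95% interval 32.4 to 59.6), beside 3.5 control tags, and its near edge lay 300 bp downstream of the start. A second tall peak at chr2:26486211-26487918 held 41.9 normalized tags beside 4 control tags. The remaining Notch1 peaks held 25.7 and 9.95 normalized tags. Of the 4, 3 were thus above the median of the list, and none was strong. Notch2 (18129, chr3:98013538-98150367, 137 kb), the partner receptor in the crypt, had 2 peaks inside its longer span, of 13.6 and 9.95 normalized tags, each beside 0.5 control tags. The nearer one began 31675 bp from the gene's start. Per kb of span and flanks, peaks at Notch1 held 2.12 ChIP tags and peaks at Notch2 held 0.153, and the peaks covered 9.64% and 0.775% of those windows. Their surroundings differed too, with 17 peaks within 100 kb of Notch1 and 7 within 100 kb of Notch2, beside a median of 5 for protein-coding genes.

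Jag1 (16449, chr2:137081451-137116520), a ligand gene on the minus strand, had 4 peaks. One of them, at chr2:137116072-137116832, lay across the start of transcription, from 312 bp upstream to 448 bp downstream, with 25.1 normalized tags, 24 ChIP tags (15.4 to 35.7) and 3.5 control tags. The tallest began 1210 bp downstream, with 41.4 normalized tags, 39.5 ChIP tags (28.2 to 53.9) and 2 control tags. The others held 11.5 normalized tags 975 bp upstream of the start and 9.43 normalized tags deep in the gene. Jag1 therefore had 3 peaks within 2 kb of its start, spread over both sides of it.

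Dll4 (54485, chr2:119325784-119335666), a ligand of crypt secretory cells and of vessels, also had 4 peaks, and 3 of these lay upstream, at 1354, 2363 and 4485 bp from the start. They held 13.6, 39.3 and 9.95 normalized tags. The tallest (chr2:119322331-119323421, 37.5 ChIP tags, 26.5 to 51.6) had 5 control tags, the most at any of the 10 genes, and a fold of 5.13. The 1 peak inside Dll4 held 12.6 normalized tags. Dll1 (13388, chr17:15367354-15376932), the other Delta-like ligand of the crypt, had 2 peaks. The one at chr17:15380307-15381298 was 3375 bp upstream of the outer start and held 26.2 normalized tags beside 2 control tags, and the one inside the gene held 11.5. Per kb of window the 3 ligand genes stood at 3.62 (Dll4), 1.85 (Jag1) and 1.84 (Dll1) ChIP tags.

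Rbpj (19664, chr5:53555779-53657445, 102 kb), through which the Notch signal reaches DNA, had a single peak. It lay within the gene span at chr5:53582395-53583940, with 42.4 normalized tags, 40.5 ChIP tags (29.0 to 55.0) and 2 control tags. It ended 6406 bp upstream of the nearer of the 2 starts that the promoter table gives for this gene. In the 100 kb on either side of Rbpj there were 3 peaks in all, beside a median of 5 for protein-coding genes.

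RefSeq promoter windows of GRCm38.p6 were matched for 7 of the 10 genes, in 9 windows, each running from 250 bases before a start to 50 after it. No window was given for Hes1, Hes2 or Hes3. Of the 9 windows 1 was touched by a peak, that of Jag1, and the background was 13.1% of 32851 windows. Of the 19 peaks at the 7 genes, 6 lay within 2 kb of a start, at Notch1, Dll4, Jag1 and Hes5. The share of all peaks within 2 kb of a start was not computed, so this count only describes position. The 250 bases before the start are shown for the window under a peak, the next closest to a peak (Hes5, 10 bp, and Notch1, 251 bp) and, for contrast, the window of Notch2, farthest from a peak at 31626 bp. Each reads 5′ to 3′ on the gene's strand, and capitals mark matches, on either strand, to TGGGAA (the core bound by Rbpj), CACNAG (the N-box of Hes proteins) or CACGTG (an E-box).
Jag1, chr2:137116521-137116770, minus strand: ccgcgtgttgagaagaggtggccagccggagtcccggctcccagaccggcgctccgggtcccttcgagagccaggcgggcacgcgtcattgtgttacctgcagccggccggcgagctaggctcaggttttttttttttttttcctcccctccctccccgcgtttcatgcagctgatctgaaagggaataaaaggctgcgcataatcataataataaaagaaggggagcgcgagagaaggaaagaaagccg
Hes5, chr4:154960673-154960922, plus strand: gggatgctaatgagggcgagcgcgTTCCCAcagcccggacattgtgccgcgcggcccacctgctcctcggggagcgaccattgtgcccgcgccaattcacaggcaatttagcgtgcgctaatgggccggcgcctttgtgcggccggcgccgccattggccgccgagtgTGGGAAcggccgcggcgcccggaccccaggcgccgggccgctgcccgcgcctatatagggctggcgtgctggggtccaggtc
Notch1, chr2:26503823-26504072, minus strand: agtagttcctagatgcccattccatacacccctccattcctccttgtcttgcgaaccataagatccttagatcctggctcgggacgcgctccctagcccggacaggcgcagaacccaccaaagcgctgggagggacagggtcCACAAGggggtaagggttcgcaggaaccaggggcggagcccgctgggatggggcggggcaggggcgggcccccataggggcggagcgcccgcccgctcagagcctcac
Notch2, chr3:98013288-98013537, plus strand: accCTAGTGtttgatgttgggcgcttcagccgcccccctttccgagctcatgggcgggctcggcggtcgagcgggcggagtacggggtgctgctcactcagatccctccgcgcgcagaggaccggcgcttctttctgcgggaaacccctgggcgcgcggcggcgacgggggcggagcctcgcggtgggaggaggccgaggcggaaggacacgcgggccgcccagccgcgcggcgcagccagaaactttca

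The Hes5 sequence held 2 matches to TGGGAA, 1 on each strand, a motif found in 21.6% of all windows over the same 250 bases. Notch1 and Notch2 held 1 match each to CACNAG, which 36.7% of windows held. The Jag1 sequence held no match to any of the 3 motifs, and CACGTG (6.02% of windows) matched in none of the 4. The sequences were rich in CG, with 20 (Jag1), 32 (Hes5), 16 (Notch1) and 34 (Notch2) CG pairs, where the median window held 6. The sequence under the Jag1 peak thus did not have the most CG pairs of the 4. A match is a description of letters and not of a bound site.

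The Hes genes were compared to ask whether the gut-active Hes1 differed from Hes2, Hes3 and Hes5 in this mark. Hes1 had no peak, and the other 3 had 5 between them. Hes2 had 1 strong peak, and Hes3 and Hes5 had 2 small peaks each. All 4 are short genes, of 2.44 kb (Hes1), 3.6 kb (Hes2), 6.66 kb (Hes3) and 1.75 kb (Hes5). At 39.7%, fewer protein-coding genes of at most 7 kb had a peak than had none, so Hes1 was on the more common side for its length. A strong peak was found at 4.43% of genes of that length.

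Hes2 (15206, chr4:152158867-152162469) had the tallest and second widest of the 22 peaks. It lay at chr4:152158584-152160711, 2127 bp wide, across the lower end of the gene, and held 63.9 normalized tags, 61 ChIP tags (46.7 to 78.4) and 3.5 control tags (0.845 to 9.51), with a fold of 11.93. In the whole list, 93.4% of peaks had fewer normalized tags. At Hes3 (15207, chr4:152285250-152291911) the taller peak, at chr4:152281389-152282151, held 17.3 normalized tags, 16.5 ChIP tags (9.52 to 26.6) and 1 control tag. It lay 3099 bp outside Hes3 and inside Gpr153, a receptor gene whose span overlaps that of Hes3 by 93 bp. The Hes3 peak inside the gene held 9.95 normalized tags, or 9.5 ChIP tags, at 0.5 control tags. It too was close to Gpr153, at 818 bp. At Hes5 (15208, chr4:154960626-154962372) the peaks held 12.0 and 9.43 normalized tags, or 11.5 (5.84 to 20.3) and 9 ChIP tags, each beside 0.5 control tags. The smaller one, at chr4:154960163-154960663, crossed the lower end of Hes5 and lay 3460 bp from Pank4. It was as low as the lowest peak of the list. With peaks at the lowest control value left out, Hes5 had none and the 3 genes had 2 peaks in place of 5.

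The tag interval of the Hes2 peak lay above those of the tallest Hes3 and Hes5 peaks. With the Hes2 peak the tallest of the 22 and the others at or below the list median of 17.3 normalized tags, this restates their heights. Density told less apart. Per kb of peak, ChIP tags were 28.7 (21.9 to 36.8) at Hes2, 21.7 (12.5 to 34.9) at Hes3 and 17.4 (8.83 to 30.7) at Hes5, and these intervals overlapped. The Hes2 peak was 2127 bp wide, against 762 and 662 bp. Per kb of gene and flanks, tags in peaks were 4.48 at Hes2, the highest of the 10 genes, then 1.75 at Hes5 and 1.56 at Hes3, with none at Hes1. The lowest peak in the list has 9 ChIP tags, and the lowest fold is 4. A gene without a peak may therefore still hold tags that formed no listed peak, and coverage outside peaks was not analysed here.

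Hes1 (15205, chr16:30065357-30067796) also stood apart from the others in its surroundings. The nearest peak, at chr16:30019995-30020495, was 44862 bp away and held 9.95 normalized tags beside 0.5 control tags. For 14.6% of protein-coding genes the nearest peak was at least as far. Within 100 kb Hes1 had that 1 peak, and 14.4% of protein-coding genes had at most as many. Hes2 had 14 peaks within 100 kb (4 strong), Hes3 had 24 and Hes5 had 22, with no strong peak at either. At least 24 peaks were found around 1.8% of protein-coding genes, at least 22 around 2.66% and at least 14 around 10.9%. Other protein-coding genes within 100 kb numbered 0 at Hes1, 5 at Hes2, 7 at Hes3 and 6 at Hes5, so the count of peaks and the count of genes moved together over these 4 places, and the part of gene density in the difference was not tested.

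**Figure D3:**
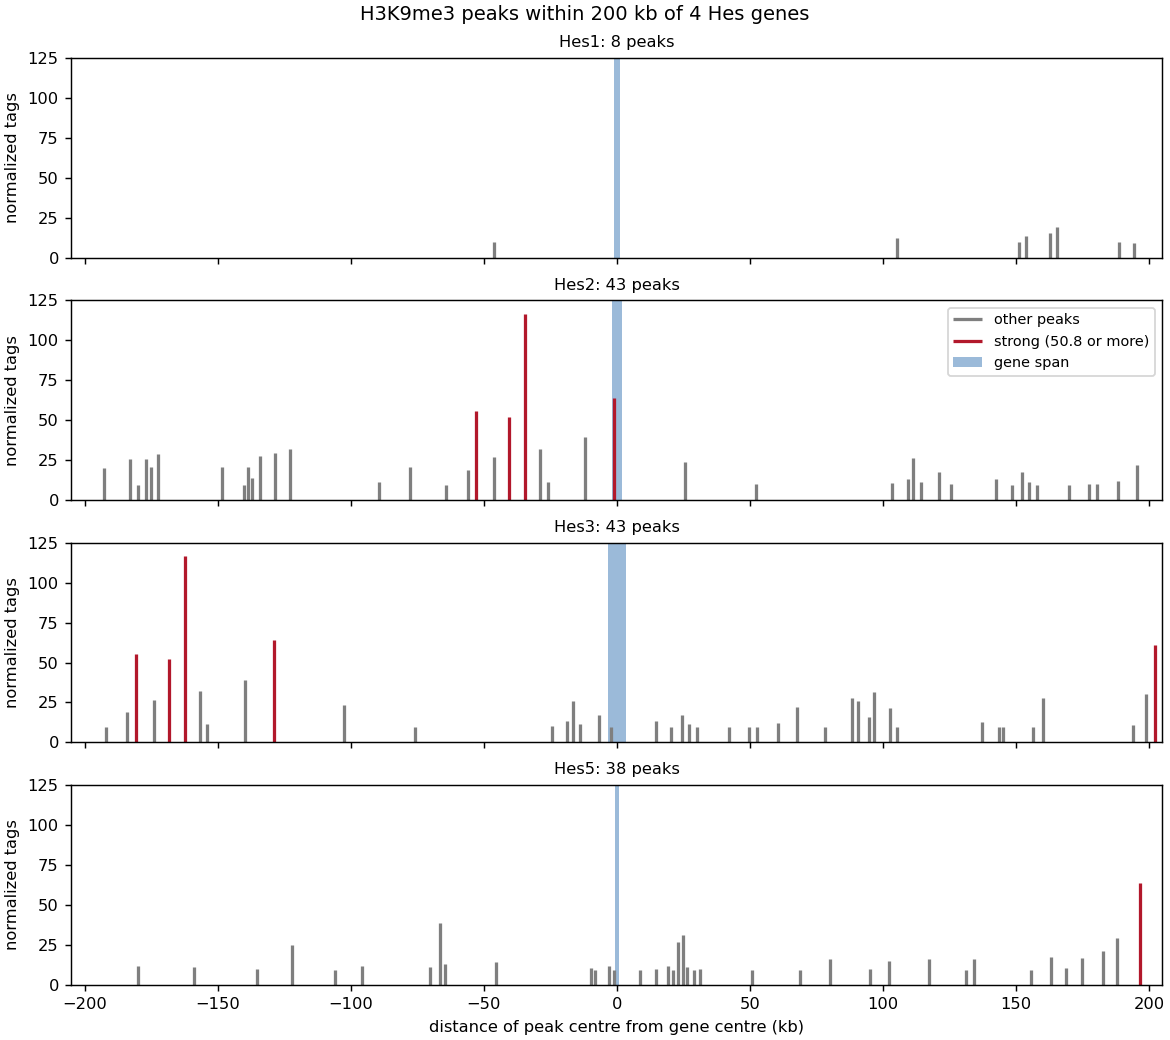
Peaks within 200 kb of Hes1, Hes2, Hes3 and Hes5, with the distance of the peak centre from the gene centre in kb on the horizontal axis and the normalized tag count on the vertical axis. Blue bands are the gene spans and red lines are strong peaks. Hes1 has 8 peaks, none above 19.4 normalized tags, and Hes2, Hes3 and Hes5 have 43, 43 and 38.

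The neighbours of Hes2, Hes3 and Hes5 also carried peaks. These 3 genes lie on the distal part of chromosome 4, with 123 kb between Hes2 and Hes3 and 2.67 Mb between Hes3 and Hes5, so the surroundings of Hes2 and Hes3 are in part the same peaks. Of the 35 other protein-coding genes within 500 kb of any of the 3, 34 (97.1%) had a peak, beside 55.6% overall. Around Hes1 it was 5 of 7 genes. Within 50 kb of Hes2 there were 3 strong peaks, its own included, of which the tallest, at chr4:152125044-152127358, held 116.8 normalized tags and 15 control tags. That peak was 31509 bp from Hes2, and another of 39.3 normalized tags lay 9289 bp away, so the Hes2 peak was 1 of several tall peaks in that stretch. Most peaks around Hes5 were low, with a median of 11.25 normalized tags within 200 kb, close to that around Hes1 (11.3). The list median was 17.3. The tallest of the 38 peaks around Hes5 was a strong one of 63.4, and the tallest of the 8 around Hes1 held 19.4. The median was 18.9 around Hes2 and 13.1 around Hes3.

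The rest of the pathway was described with a list of 50 further genes. Of these, 37 (74.0%, exact Clopper-Pearson 95% interval 59.7 to 85.4%) had a peak, beside 55.6% of protein-coding genes, and 5 had a strong peak, beside 6.61%. The median number of peaks per gene was 1, as over all protein-coding genes. The listed genes had a median length of 22.2 kb, and the median over protein-coding genes was 17.2 kb.

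Among ligands and receptors, all 7 had a peak (interval 59.0 to 100%), beside 55.6% of all protein-coding genes. Their median length was 22.0 kb, and 55.4% of protein-coding genes of 7 to 30 kb had a peak. None of the 7 had a strong peak, beside 6.61% of protein-coding genes. Jag2, a second Jagged ligand, had 6 peaks, the tallest at 28.3 normalized tags. Among 23 genes that process or modify the receptors and ligands, 15 had a peak (65.2%, interval 42.7 to 83.6%), near the 55.6% of all protein-coding genes. Mib2, a ubiquitin ligase that acts on ligands, had 7 peaks. Its strong one, at chr4:155652244-155654481 (60.8 normalized tags, 58 ChIP tags, 6 control tags), crossed an end of the gene and also lay within 5 kb of Cdk11b and Mmp23. Dtx3, of the Deltex ubiquitin ligase family, had a strong peak of 56.0 normalized tags that lay 50 bp outside the gene and near Arhgef25.

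Nuclear cofactors, with a median length of 106 kb, had a peak in 7 of 9 genes, beside 69.2% of protein-coding genes over 30 kb. They held the tallest peak at any of the 50 genes of the wider list. Spen, a corepressor that binds Rbpj, had 7 peaks. Its strong one, at chr4:141471642-141479451, was 7809 bp wide and held 256.1 normalized tags, or 244.5 ChIP tags (215 to 277), beside 12.5 control tags, and it was also within 5 kb of Zbtb17. Maml3, a coactivator of the Mastermind family, had 10 peaks over 418000 bp and none was strong. In the group of Hes, Hey and target genes, 8 of 11 had a peak (72.7%, interval 39.0 to 94.0%), beside 55.6% of all protein-coding genes. Gfi1, a zinc finger repressor of the secretory lineage, had a strong peak inside the gene, at chr5:107722804-107725745, with 78.6 normalized tags and 8 control tags. Atoh1, the secretory regulator that Hes1 represses, had 1 peak of 33.5 normalized tags. Of the remaining genes on the list named Hes or Hey, Hes6 had 1 peak (29.3 normalized tags), Hes7 had 3 (tallest 34.0) and Hey2 had 1 (31.4). Neither Hey1 nor Heyl had a peak. Hes1 was thus 1 of 3 genes without a peak among the 9 examined that are named Hes or Hey. Helt, in the same group of the list, had no peak either. By length, 39.7% of protein-coding genes of at most 7 kb and 55.4% of those of 7 to 30 kb had a peak.

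**Figure D4:**
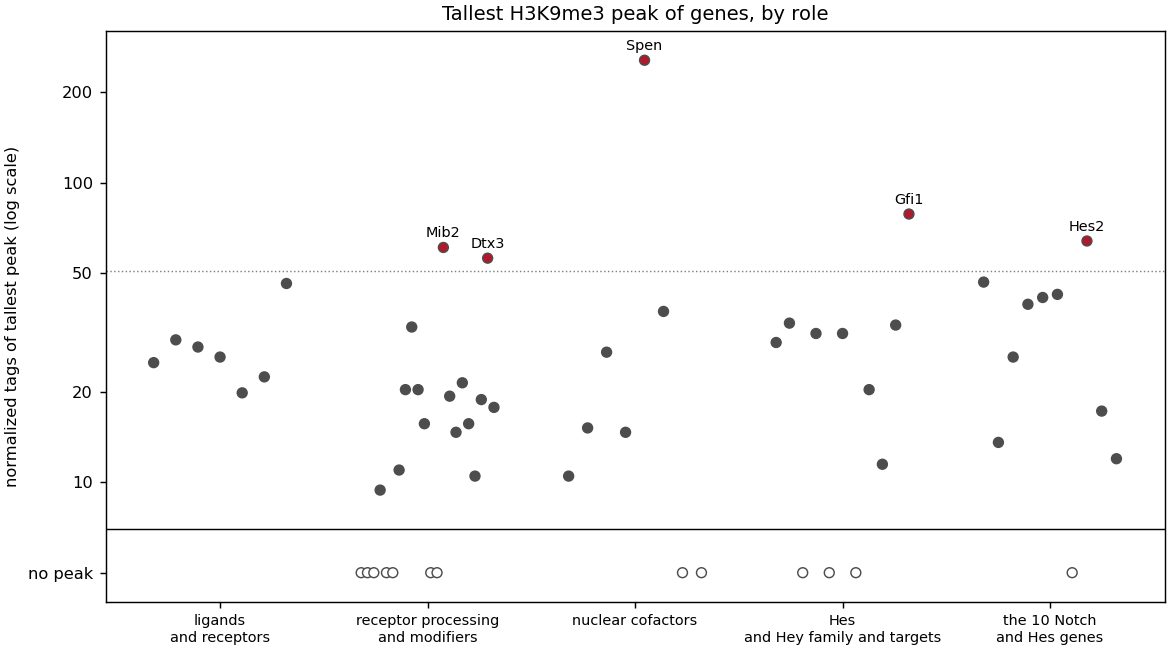
Normalized tag count of the tallest peak (vertical, log scale) for the genes of the wider pathway list that are reported here, by role, and for the 10 Notch and Hes genes. Open points below the solid line are genes without a peak, red points are strong peaks above the dotted line at 50.8, and Spen is the highest at 256.1.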

How the data were processed

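H3K9me3 ChIP-seq of sorted intestinal stem cells gave 1 peak list from 1 ChIP library against 1 control library, which is seen through its tags in the peaks. Bowtie2 2.2.8 and HOMER 4.10.1, with GRCm38 and mm10, are named per the submitters' processing notes. The peak caller was run with options not given in the sources used here. Normalized tag counts deposited by the authors and control tags are signal values, per the file headers. The deposited fold is the ratio of scaled ChIP tags to control tags, with a lowest value of 4. The deposited p-value of each peak (highest 8.32e-05) and the deposited score came from the caller, and the score was used to filter the list in 1 alternative.

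Normalized tag counts were spaced by 0.524 per 0.5 tag, and 100% of low values fell on such steps within 0.1, which gave the ChIP tags. For the control library the total was 0.684 of the ChIP library's. If the scaling was to 10 M, which the header does not state, the libraries held 9.55 and 6.53 M tags. Clopper-Pearson intervals are exact. Poisson intervals apply the exact formula to tags in steps of 0.5, which need not be whole counts, so they are approximate. Both are at 95% and cover counting error alone.

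Gene spans came from RefSeq GRCm38.p6, with 402 of 49997 genes left out for lying on scaffolds, in the mitochondrion or at no known place. The overlap count was tested on simulated data. The genes and lists were chosen with earlier results of these data known. Named were all 10 genes, of the wider list the 5 with most peaks and every gene with a strong peak, and coding neighbours within 5 kb of a described peak, and some genes that it took are not reported. Atoh1, Hes6, Hes7, Hey1, Hey2, Heyl, Helt and the genes of the closing observations were chosen after their values were seen. Alternatives were other windows, folds of at least 8, scores above the median, peak centres, control tags above the floor, and merging. Python 3.11.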

Additional observations from a re-analysis of the deposited data

How the results depend on the processing

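Hes1 had 0 peaks and Hes2 had at least 1 under all 8 alternatives. The count at Hes1 could not change, because its nearest peak was 44862 bp away. The widest window was 10 kb either side, and no alternative adds peaks. The 9 genes with a peak became 6 among peaks scoring above the median (without Notch2, Rbpj and Hes5) and 7 with control tags above the lowest value (without Notch2 and Hes5), where 35.7% and 41.2% of protein-coding genes had a peak in place of 55.6%, and stayed at 9 in the other 6. Peaks at the 10 genes went from 22 to 10 above the median score and to 11 with control tags above the lowest value. Peaks at Hes2, Hes3 and Hes5 went from 5 to 3 for the gene span alone, 9 with 10 kb either side, 2 above the median score, 2 with control tags above the lowest value and 3 with peaks within 5 kb merged. Genes of the wider list with a peak went from 37 to 24 above the median score. These alternatives remove peaks or move the window by construction. No paired analysis was possible because each group had 1 library. Of the 22 peaks, 13 rest on under 20 ChIP tags, so their heights have wide counting intervals. Such low counts are common in the whole list, where the median was 16.5 ChIP tags.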

Other observations

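The fringe genes, whose products add sugars to Notch receptors, were picked from the wider list after their values were seen. They had peaks at all 3 members, beside 55.6% of protein-coding genes (39.7% at a length of at most 7 kb and 55.4% at 7 to 30 kb). There were 4 at Lfng, 3 at Mfng and 3 at Rfng, with tallest peaks of 33.0, 20.4 and 15.7 normalized tags. Only 1 peak touched the span of each gene, and the rest lay in the flanks. Within 100 kb there were 20, 16 and 24 peaks, beside a median of 5 for protein-coding genes.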
